A study of Saccharomyces cerevisiae with 8 samples.

Results

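The effect of losing *SNF1* on the NaCl response of *cdc14-3* cells was examined outside the cell cycle. For every feature of the array, the log2 ratio of NaCl-treated over unstressed cells on the 3 *cdc14-3 snf1* arrays was set against the ratio on the 2 *cdc14-3* arrays, which took 5 of the 8 arrays of the series. Both strains are *Saccharomyces cerevisiae* W303 and carry *cdc14-3*, a temperature-sensitive allele. The *cdc14-3 snf1* strain also carries the *snf1* mutation. Cultures grew in YPD, a rich glucose medium, at 25 °C, were moved to 35 °C and then received 0.7 M NaCl for 30 min at that temperature. Heating before NaCl lasted 90 min for *cdc14-3 snf1* replicate 1, and 2 h for *cdc14-3 snf1* replicates 2 and 3 and for both *cdc14-3* arrays (replicates 2 and 3). The comparison was therefore also made on the 2 h arrays alone. The remaining 3 arrays, of *snf1* with an intact *CDC14*, entered the fits only to help estimate the spread of each gene. Of these, *snf1* replicate 1 was heated for 90 min and replicates 2 and 3 for 2 h. With all arrays, the spread of a gene therefore also holds differences between heating times in *snf1* and *cdc14-3 snf1*. Wild-type arrays were not analysed here. The labels do not say whether arrays of a strain came from separate cultures, so the p-values measure the spread between these arrays.

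Snf1 is the yeast AMP-activated protein kinase. It is best known for relieving glucose repression: with its regulatory subunits it inactivates the repressor Mig1 and activates Cat8, Sip4 and Adr1, which in turn switch on genes for the use of alcohols, organic acids and fatty acids. Snf1 is also activated by salt. Cdc14 is the phosphatase that reverses cyclin-dependent kinase phosphorylation at the end of mitosis. Salt stress itself acts through the kinase Hog1 and the general stress factors Msn2 and Msn4, which induce glycerol, trehalose and antioxidant genes, while genes that build ribosomes are repressed.

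A ratio within a strain rests on both of its channels, so a lower ratio cannot be told apart from a higher level before NaCl. The *SNF1* ratio was 0.19, 0.28 and 0.03 in *cdc14-3 snf1* and -0.34 and -0.27 in *cdc14-3* (adjusted p in limma 0.863), and such a ratio does not test the deletion. Ratios were spread less widely on the *cdc14-3 snf1* arrays, with standard deviations over features of 0.89, 0.81 and 0.72, against 0.94 and 0.92 on the *cdc14-3* arrays. Across the 6096 genes with values on every array, the slopes of the *cdc14-3 snf1* arrays on the *cdc14-3* mean were 0.65, 0.79 and 0.64, while the slope of *cdc14-3* replicate 3 on replicate 2 was 0.88. All these slopes are below 1, and those of the *cdc14-3 snf1* arrays are the lowest. The fits were also run with the arrays brought to one spread, and some of those values are given below.

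With all arrays, 3 of 6135 genes (0.0489%) passed an adjusted p of 0.05 in limma. All 3 were lower in *cdc14-3 snf1* and lie outside the cell cycle list. With the arrays brought to one spread, limma instead called 6 higher and 45 lower. *FMP16* (YDR070C) encodes a protein found in the mitochondrial proteome. Its log2 ratio was 1.01, 2.47 and 2.01 in *cdc14-3 snf1* and 5.65 and 5.29 in *cdc14-3*. *CHA1* (YCL064C) encodes the catabolic serine and threonine deaminase of mitochondria. Its ratio was -0.50, 0.23 and 0.61 in *cdc14-3 snf1* and 2.75 and 2.57 in *cdc14-3*. *DIC1* (YLR348C), the dicarboxylate carrier of the inner mitochondrial membrane, had ratios of -0.02, 0.09 and 0.12 in *cdc14-3 snf1* and 1.70 and 1.49 in *cdc14-3*. For all 3 genes the strains did not overlap, and *CHA1* and *DIC1* stayed near 0 in *cdc14-3 snf1*.

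The differences were -3.64 (SE 0.46) for *FMP16*, -2.55 (SE 0.31) for *CHA1* and -1.53 (SE 0.20) for *DIC1*, each with an adjusted p in limma of 0.0424. On the 2 h arrays alone the differences were -3.23, -2.25 and -1.49, with adjusted p in limma of 0.0076, 0.01 and 0.0194. In *snf1* cells with an intact *CDC14* the ratios of *DIC1* were -0.73, -0.33 and -0.43, those of *CHA1* were -0.81, -0.49 and -0.32, and those of *FMP16* were 1.95, 0.98 and 0.66. These 3 calls are near the threshold: they were lost when any of 6 single arrays was left out, of all 3 strains, and were kept without *snf1* replicate 1 or *cdc14-3 snf1* replicate 2. The differences themselves ranged from -3.96 to -3.23 for *FMP16*, from -2.80 to -2.25 for *CHA1* and from -1.64 to -1.43 for *DIC1* when single arrays were left out.

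On the 2 h arrays, 44 of 6096 genes were called (0.722%). Of these, 8 belong to the cell cycle genes and 36 do not. Of the 36, 33 were lower and 3 higher in *cdc14-3 snf1*. All 44 also had non-overlapping arrays when the 90 min array was added, as did 2188 of 6118 features over the whole array. The 44 were called on the 2 h arrays among them, so this is no separate support. Among the 33 lower genes, 31 had mean ratios above 0 in both strains. Some of these means were near 0 in *cdc14-3 snf1*, such as those of *GSC2* (0.002), *DIC1* (0.06) and *CHA1* (0.11). The 90 min array was the lowest *cdc14-3 snf1* array for 23 of the 33.

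**Figure D1:**
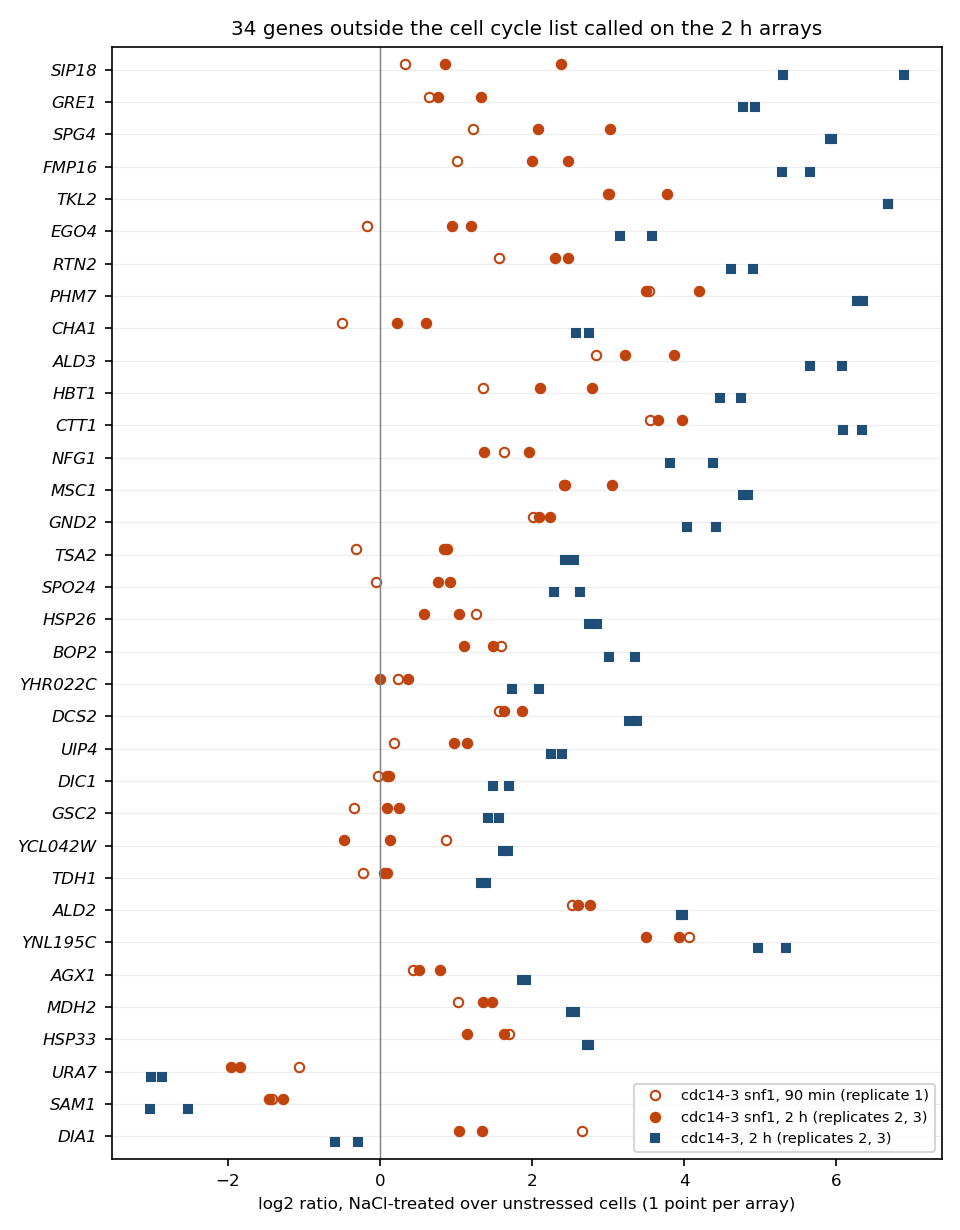
Log2 ratio (NaCl-treated over unstressed cells, x axis) of 34 of the 36 genes outside the cell cycle list that limma called on the 2 h arrays, 1 point per array. Red circles are *cdc14-3 snf1* (open for the 90 min array) and blue squares *cdc14-3*. In each row the strains do not overlap, and *URA7*, *SAM1* and *DIA1* at the bottom are the 3 genes with higher ratios in *cdc14-3 snf1*.

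Among the called genes outside the cell cycle list, *SIP18* (YMR175W) and *GRE1* (YPL223C) had the 2 largest falls at 2 h. They encode related hydrophilins, small water-loving proteins that accumulate in drying or salt-stressed cells. *GRE1* had ratios of 0.64, 1.33 and 0.77 in *cdc14-3 snf1* and 4.78 and 4.94 in *cdc14-3*, which differed by -3.81 at 2 h (SE 0.22), with the smallest adjusted p in limma of all genes, 0.00347. *SIP18* had ratios of 0.33, 2.39 and 0.85 in *cdc14-3 snf1* and 6.90 and 5.30 in *cdc14-3*. Neither gene reached in *cdc14-3 snf1* even the lower of its *cdc14-3* values. *SPG4* (YMR107W), named for its expression in stationary phase, had ratios of 1.22, 3.03 and 2.07 in *cdc14-3 snf1* and 5.92 and 5.95 in *cdc14-3*. *RTN2* (YDL204W), a reticulon of the endoplasmic reticulum, had ratios of 1.56, 2.47 and 2.31 in *cdc14-3 snf1* and 4.91 and 4.62 in *cdc14-3*. *SPS100* (YHR139C), a gene of spore wall maturation that was not called, had ratios of 2.40, 3.66 and 2.20 in *cdc14-3 snf1* and 5.95 and 5.48 in *cdc14-3*. With all arrays, the adjusted p in limma was 0.0571 for *SIP18*, *GRE1* and *SPG4*, 0.0786 for *RTN2* and 0.0977 for *SPS100*, all outside the threshold.

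Several enzymes of carbohydrate and aldehyde metabolism were among the called genes. *TKL2* (YBR117C) encodes the minor transketolase and *GND2* (YGR256W) the minor 6-phosphogluconate dehydrogenase of the pentose phosphate pathway. *TKL2* had ratios of 3.01, 3.77 and 3.00 in *cdc14-3 snf1*, against 6.68 on both arrays of *cdc14-3*. *GND2* had ratios of 2.01, 2.24 and 2.09 in *cdc14-3 snf1* and 4.41 and 4.03 in *cdc14-3*. Both were still induced on every *cdc14-3 snf1* array, at ratios above 2. *ALD3* (YMR169C) and *ALD2* (YMR170C) encode cytosolic aldehyde dehydrogenases and are similar neighbours, so that a probe for one may also have bound RNA of the other. *ALD3* had ratios of 2.85, 3.87 and 3.23 in *cdc14-3 snf1* and 6.08 and 5.65 in *cdc14-3*. *MDH2*, the cytosolic malate dehydrogenase of gluconeogenesis, had ratios of 1.03, 1.35 and 1.48 in *cdc14-3 snf1* and 2.52 and 2.57 in *cdc14-3*. *TDH1* (YJL052W), a minor glyceraldehyde-3-phosphate dehydrogenase, was near 0 in *cdc14-3 snf1* (-0.22, 0.09 and 0.06) and induced in *cdc14-3* (1.39 and 1.32). The 2 h differences of these 6 genes ran from -1.13 for *MDH2* to -3.30 for *TKL2*, with adjusted p in limma of 0.022 to 0.0446.

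Antioxidant, chaperone and wall genes completed the named part of the called set. *CTT1* (YGR088W), the cytosolic catalase, had ratios of 3.55, 3.97 and 3.66 in *cdc14-3 snf1* and 6.33 and 6.10 in *cdc14-3*. *TSA2* (YDR453C), the stress-inducible thioredoxin peroxidase, had ratios of -0.32, 0.84 and 0.89 in *cdc14-3 snf1* and 2.56 and 2.43 in *cdc14-3*. *HSP26* (YBR072W), a small heat shock protein that binds unfolded proteins, had ratios of 1.26, 1.04 and 0.58 in *cdc14-3 snf1* and 2.85 and 2.76 in *cdc14-3*. For all 3, every *cdc14-3 snf1* array lay below both *cdc14-3* arrays, and only *TSA2* had a ratio below 0, on the 90 min array. *GSC2* (YGR032W), the catalytic subunit of glucan synthase used in stress and sporulation, had ratios of -0.34, 0.09 and 0.26 in *cdc14-3 snf1* and 1.43 and 1.56 in *cdc14-3*. *AGX1* (YFL030W), which makes glycine from glyoxylate, had ratios of 0.44, 0.79 and 0.51 in *cdc14-3 snf1* and 1.92 and 1.87 in *cdc14-3*. *NFG1* (YLR042C), a negative regulator of filamentous growth, had ratios of 1.63, 1.95 and 1.36 in *cdc14-3 snf1* and 3.81 and 4.38 in *cdc14-3*. The other lower genes included *EGO4*, *PHM7*, *MSC1*, *HBT1*, *SPO24*, *BOP2*, *DCS2* and *UIP4*, and 3 features without a gene symbol (YHR022C, YCL042W and YNL195C), with 2 h differences between -1.26 and -2.46. *HSP33*, also called, belongs to a family of near-identical genes.

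The 3 genes with higher ratios were 2 biosynthetic genes that NaCl repressed in both strains and 1 gene whose ratio lay on the other side of 0. *URA7* (YBL039C), the major CTP synthase, had ratios of -1.07, -1.95 and -1.84 in *cdc14-3 snf1* and -3.01 and -2.87 in *cdc14-3*. *SAM1* (YLR180W), an S-adenosylmethionine synthetase, had ratios of -1.42, -1.46 and -1.28 in *cdc14-3 snf1* and -2.52 and -3.03 in *cdc14-3*. *DIA1* (YMR316W), a gene of invasive and pseudohyphal growth, had ratios of 2.65, 1.04 and 1.34 in *cdc14-3 snf1* and -0.59 and -0.28 in *cdc14-3*. The 2 h differences were 1.04 for *URA7*, 1.41 for *SAM1* and 1.63 for *DIA1*, with adjusted p in limma of 0.0452, 0.0496 and 0.0398. Calls on the 2 h arrays rested heavily on single arrays: leaving out *cdc14-3* replicate 2 left 0 calls in limma (415 genes at an unadjusted p under 0.05), *snf1* replicate 2 left 7, *snf1* replicate 3 left 10, *cdc14-3 snf1* replicate 3 left 13 and *cdc14-3* replicate 3 left 22. Limma called 11 genes with no filter on missing values, 12 with a trended and robust spread, 7 with only the 2 strains fitted and 67 with array weights. With the 2 h arrays brought to one spread it called 50, of which 35 were among the 44.

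Beyond the called genes, 35 gene lists chosen for stress, carbon and growth metabolism were described by how many members had all 3 *cdc14-3 snf1* arrays below, or all above, both *cdc14-3* arrays. Cell cycle genes were left out of the lists. Over all 6118 features with values on the 5 arrays, 17.0% lay below in this sense and 18.8% above, and the median difference was -0.01. Shares near these are no result about a list, and every count of members below is to be read beside them. None of these counts is a test, and members of a list share the same 5 arrays. The part of the lower slopes of the *cdc14-3 snf1* arrays in these counts was not tested for any list.

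**Figure D2:**
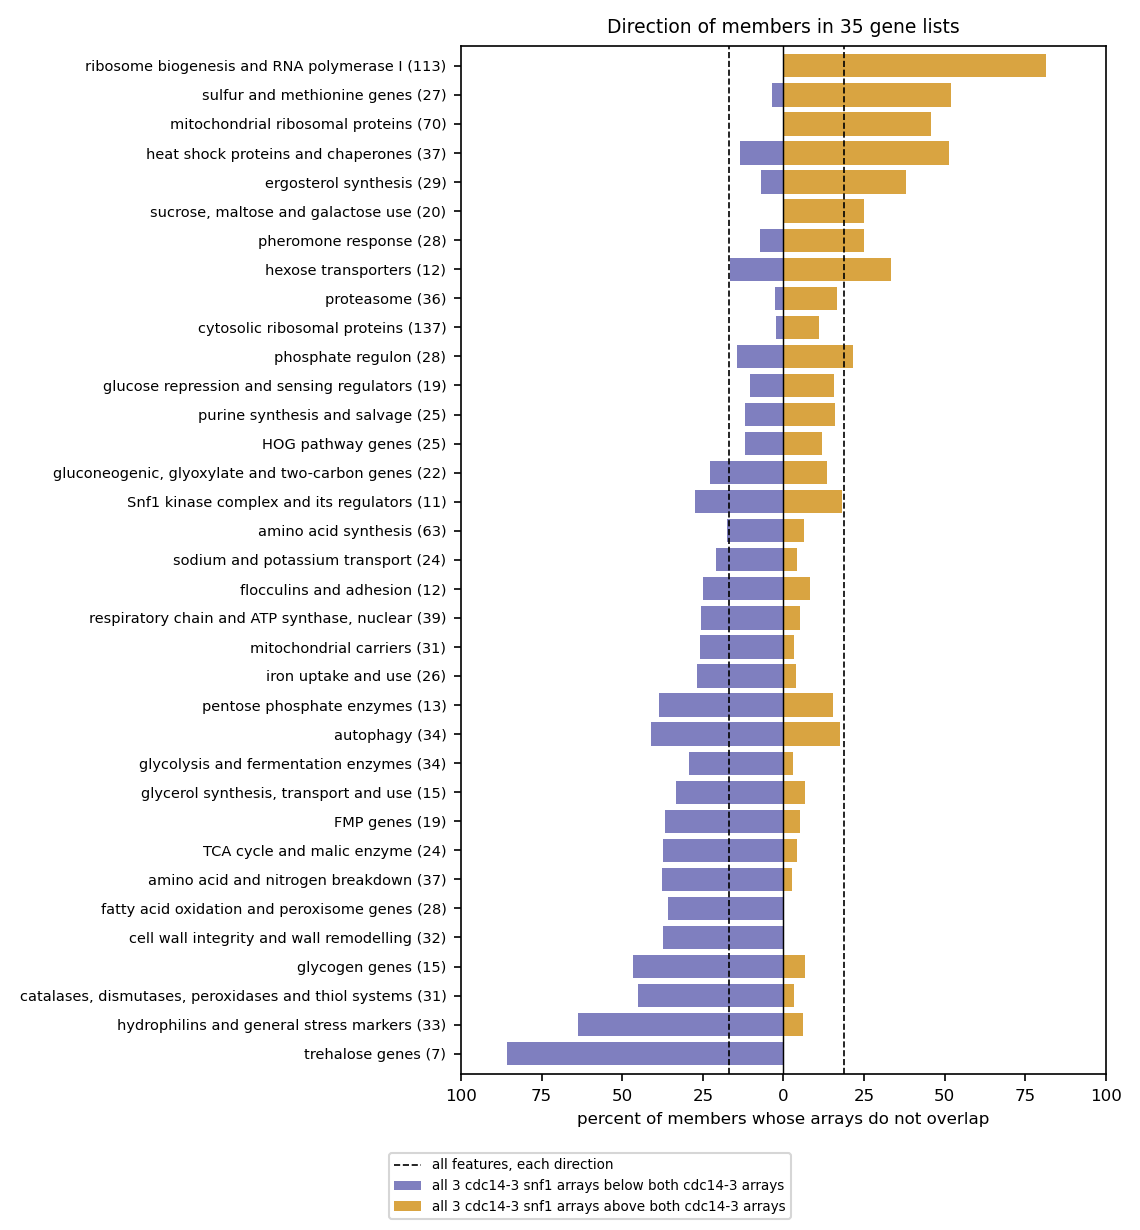
Percent of the members of each of 35 lists (number of members with values on all 5 arrays in brackets) whose 3 *cdc14-3 snf1* arrays all lay below (left, blue) or all above (right, yellow) both *cdc14-3* arrays. Dashed lines mark 17.0% and 18.8%, the shares over all features. Ribosome biogenesis genes stand at the top with 81.4% above, and stress markers and trehalose genes at the bottom with 63.6% and 85.7% below.

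The hydrophilins and general stress markers lay mostly below. Of 33 members tested, 21 had non-overlapping lower arrays (63.6%) and 2 higher (6.06%), with a median difference of -0.85, and -0.79 on the 2 h arrays. In this list 28 members had mean ratios above 0 in both strains. The list median was 1.19, 1.5 and 1.04 on the *cdc14-3 snf1* arrays and 2.43 and 2.41 on the *cdc14-3* arrays. With the arrays brought to one spread the median difference was -0.86. That setting scales each array as a whole, and the part of the lower slopes of the *cdc14-3 snf1* arrays in the result was not tested. Besides the genes above, *DDR2* (YOL052C-A), a small protein induced by many stresses, had ratios of 0.85, 2.88 and 1.15 in *cdc14-3 snf1* and 4.84 and 4.64 in *cdc14-3*. *HSP12*, a membrane-associated hydrophilin, had ratios of 2.11, 2.63 and 1.23 in *cdc14-3 snf1* and 3.96 and 3.95 in *cdc14-3*. Of the genes for the general stress factors themselves, *MSN2* differed by 0.13 and *MSN4* by 0.55, and their arrays overlapped. The glycogen synthase kinase family gene *MRK1* (0.74) and the calmodulin-dependent kinase gene *CMK2* (0.60) were the 2 members above.

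Trehalose, a sugar that protects proteins and membranes, is made by a synthase complex of *TPS1*, *TPS2*, *TPS3* and *TSL1* and degraded by *NTH1*, *NTH2* and *ATH1*. Of these 7 genes, 6 had lower arrays that did not overlap (85.7%), with a median difference of -0.43, and all 7 were induced in both strains. *TSL1*, a regulatory subunit, had ratios of 1.53, 2.01 and 1.71 in *cdc14-3 snf1* and 2.70 and 3.05 in *cdc14-3*. *TPS1*, the synthase, had ratios of 1.62, 1.98 and 1.85 in *cdc14-3 snf1* and 2.64 and 2.43 in *cdc14-3*. Genes of synthesis and of breakdown lay on the same side, and none was called (adjusted p in limma 0.385 for *TSL1* and 0.4 for *TPS1*). Glycogen genes were split: 7 of 15 lay below and 1 above, with a median difference of 0.00, and -0.19 on the 2 h arrays. *GSY2*, the major glycogen synthase, had ratios of 0.73, 1.56 and 1.31 in *cdc14-3 snf1* and 2.14 and 1.93 in *cdc14-3*. Its paralog *GSY1* ran the other way, with 2.55, 0.75 and 1.26 in *cdc14-3 snf1* and 0.57 and 0.45 in *cdc14-3*.

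Glycerol, the osmolyte that yeast accumulates in salt, is made by *GPD1* and *GPP2* and imported by *STL1*. The ratios of *GPD1* were 3.69, 3.53 and 3.27 in *cdc14-3 snf1* and 3.61 and 3.50 in *cdc14-3*, which differed by -0.06 (SE 0.34). Those of *GPP2* were 3.27, 3.85 and 2.72 in *cdc14-3 snf1* and 3.35 and 3.37 in *cdc14-3*. *STL1*, with the largest ratios of the list, had 6.32, 7.41 and 6.45 in *cdc14-3 snf1* and 7.51 and 7.50 in *cdc14-3*. The 2 synthesis genes were strongly induced on every array, and their arrays overlapped between strains. In glycerol use, *GCY1*, a glycerol dehydrogenase, had -0.00, 0.79 and 0.62 in *cdc14-3 snf1* and 1.88 and 1.56 in *cdc14-3*, and *GUT2*, the mitochondrial glycerol-3-phosphate dehydrogenase, had 0.16, 0.85 and 0.51 in *cdc14-3 snf1* and 1.62 and 1.69 in *cdc14-3*. Neither was called (adjusted p in limma 0.0977 and 0.157 with all arrays). Over the list, 5 of 15 members lay below and 1 above, and for all 5 the 90 min array was the lowest of the *cdc14-3 snf1* arrays. Of the HOG pathway genes, 3 of 25 lay below and 3 above, and of the sodium and potassium transport genes 5 of 24 below and 1 above. *ENA1*, the sodium pump that Snf1 is known to help induce, had ratios of 1.63, 2.69 and 2.08 in *cdc14-3 snf1* and 3.05 and 2.67 in *cdc14-3*, and its arrays overlapped. *ENA5* lay below, with 1.63, 2.46 and 2.02 in *cdc14-3 snf1* and 2.80 and 2.65 in *cdc14-3*. It was not called (adjusted p in limma 0.583 with all arrays). The *ENA* genes are nearly the same in sequence, and the array may not have measured them separately.

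The gluconeogenic genes, classic targets of Snf1 in glucose repression, were near the shares over all features. Among 22 gluconeogenic, glyoxylate and two-carbon genes, 5 lay below (22.7%) and 3 above (13.6%), with a median difference of -0.17, which was -0.01 without *cdc14-3 snf1* replicate 2. The gluconeogenic *PCK1* differed by -0.22 and *FBP1*, a fructose bisphosphatase, by -0.74 (adjusted p in limma 0.531). *ICL1*, isocitrate lyase, had ratios of 1.68, 0.41 and 0.56 in *cdc14-3 snf1* and 0.91 and 0.65 in *cdc14-3*. *CIT2*, the peroxisomal citrate synthase, had the largest difference of the list, with ratios of 0.12, 2.84 and 0.77 in *cdc14-3 snf1* and 3.42 and 3.22 in *cdc14-3*. The value of 2.84 lay far from the other 2 arrays of its strain, and the difference of -2.08 was not called (SE 0.63, adjusted p in limma 0.265). Of the 20 genes of sucrose, maltose and galactose use, 0 lay below and 5 above. *SUC2*, invertase, had ratios of -0.81, -0.67 and -0.46 in *cdc14-3 snf1* and -0.79 and -0.87 in *cdc14-3*.

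Among the regulators themselves, *CAT8* was induced on every array and overlapped between strains, with 1.94, 1.54 and 1.60 in *cdc14-3 snf1* and 1.38 and 1.68 in *cdc14-3*. *SIP4* lay lower, with 1.23, 1.25 and 1.04 in *cdc14-3 snf1* and 1.60 and 2.04 in *cdc14-3*, as did *ADR1*, with 0.04, 0.34 and 0.39 in *cdc14-3 snf1* and 0.82 and 0.70 in *cdc14-3* (adjusted p in limma 0.651 and 0.702). *MTH1*, which restrains the induction of hexose transporters, was, of the 5 arrays of these strains, highest on the 90 min array: its ratio there was 1.48 in *cdc14-3 snf1*, with -0.91 and -0.25 on the 2 h arrays of that strain, and -1.78 and -1.40 in *cdc14-3*. In *snf1* the *MTH1* ratios were 2.93, 2.25 and 1.83. Of 19 members of this list, 2 lay below and 3 above, and of 11 genes of the Snf1 complex and its regulators, 3 below and 2 above. *SIP2*, a β subunit of the complex, had -0.13, 0.30 and 0.36 in *cdc14-3 snf1* and 0.71 and 0.60 in *cdc14-3*.

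Of 12 hexose transporters tested, 2 lay below (16.7%) and 4 above (33.3%), and none was called in either fit. The list median of 0.12 turned to -0.10 on the 2 h arrays. *HXT5*, a transporter of slow-growing and stressed cells, had ratios of 3.64, 4.86 and 3.38 in *cdc14-3 snf1* and 6.56 and 6.55 in *cdc14-3*, and differed by -2.59 (SE 0.67), which was not called (adjusted p in limma 0.201). *HXT3*, a low-affinity glucose transporter, had ratios of -0.93, -0.92 and -0.74 in *cdc14-3 snf1* and -1.62 and -1.95 in *cdc14-3*. *HXT4* had 1.17, -0.96 and -0.78 in *cdc14-3 snf1* and -1.97 and -1.45 in *cdc14-3*. Several members of the family are close in sequence, so single transporters are uncertain.

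Several of the lower genes are the salt-induced copy of a duplicated enzyme. For 12 such enzymes the copy induced in *cdc14-3* was set beside its partner or partners, a choice made after these values were seen. All 12 induced copies lay below, with differences from -3.42 to -0.77, and 7 of them were called on the 2 h arrays. As they were picked from the lower genes, that count is no result. *GPD1* and *GPP2*, induced by NaCl with overlapping arrays, were not among the 12. Of 14 partners, 10 had overlapping arrays, 3 lay below, 1 above, and none was called, with differences from -0.49 to 0.75. The induced copies *CIT2* (-2.08) and *GSY2* (-0.83) also lay below but were not among the 12. Their partners lay outside that range: *CIT1* lay below (-0.97) and *GSY1* above (1.005). The count of overlapping partners therefore rests in part on the choice of enzymes. *TKL1*, the major transketolase, had -1.04, -0.85 and -0.62 in *cdc14-3 snf1* and -0.93 and -0.89 in *cdc14-3*, where *TKL2* differed by -3.42. The transaldolase *TAL1* differed by -0.08 and its paralog *NQM1* by -2.45. *TSA1* differed by -0.33 and *TSA2* by -2.02. *FKS1*, the main glucan synthase, differed by -0.05 and *GSC2* by -1.49. *TDH2* and *TDH3* differed by -0.09 and -0.20, and *TDH1* by -1.38. The partner that lay above was *GND1*, which differed by 0.45. *CTA1*, the peroxisomal catalase, had 1.98, 0.51 and 0.65 in *cdc14-3 snf1* and -0.26 and 0.85 in *cdc14-3*, and its arrays overlapped.

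**Figure D3:**
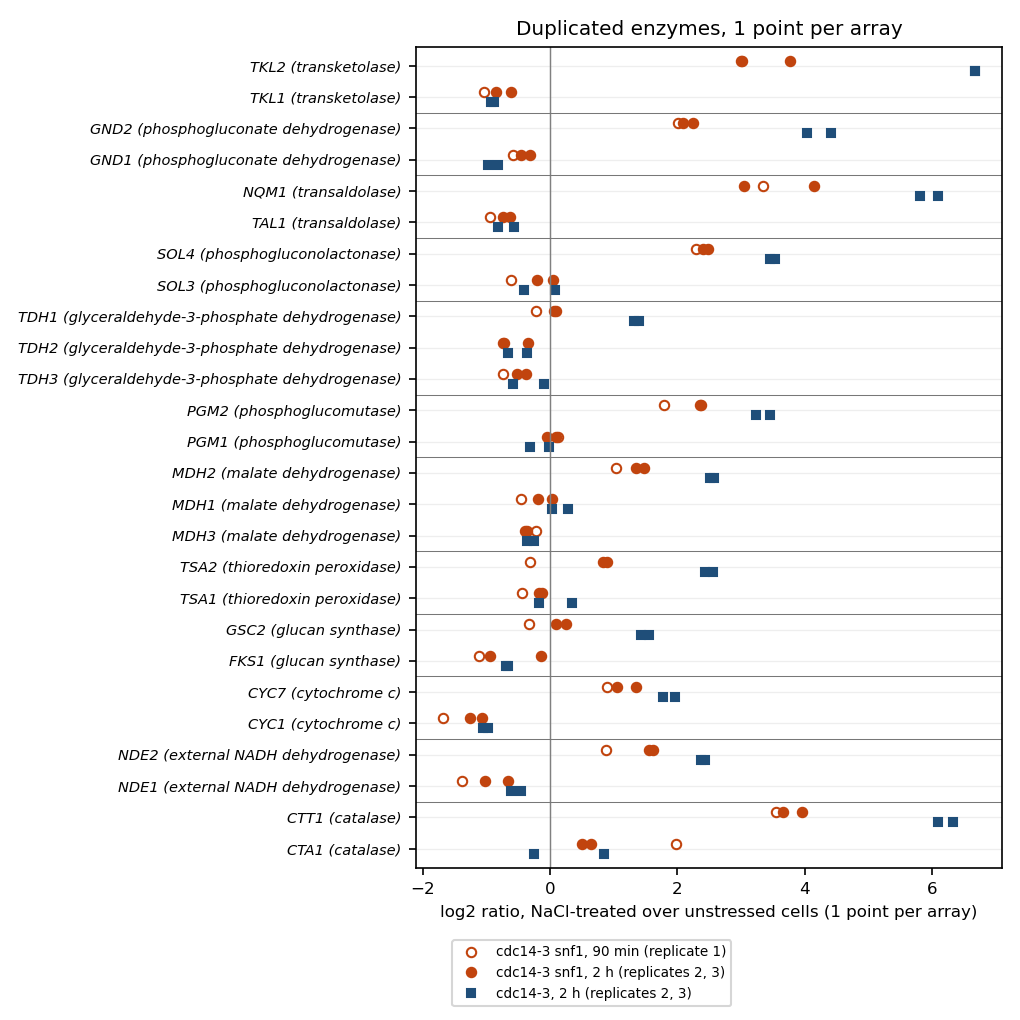
Log2 ratio (NaCl-treated over unstressed cells, x axis) of 12 duplicated enzymes, 1 point per array, with the copy induced in *cdc14-3* first and its partner or partners under it. Red circles are *cdc14-3 snf1* (open for the 90 min array) and blue squares *cdc14-3*. The strains are apart for the 12 induced copies, which were picked from the lower genes after the values were seen. They overlap for 10 of 14 partners, a count that rests in part on the choice of enzymes.

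Over all features, 17.0% lay below and 18.8% above. The glycolysis and fermentation enzymes had 10 of 34 members below (29.4%) and 1 above. The pentose phosphate enzymes had 5 of 13 below (38.5%) and 2 above, and the TCA cycle enzymes 9 of 24 below (37.5%) and 1 above. The first steps of the TCA cycle were among these 9: *CIT1*, the mitochondrial citrate synthase, had -0.54, 0.09 and -0.17 in *cdc14-3 snf1* and 0.86 and 0.66 in *cdc14-3*, and *IDH2*, a subunit of isocitrate dehydrogenase, had -1.27, -0.74 and -0.66 in *cdc14-3 snf1* and 0.17 and -0.03 in *cdc14-3*. Neither difference was called (adjusted p in limma 0.142 and 0.245). Of 39 respiratory chain and ATP synthase genes, 10 lay below (25.6%) and 2 above. In this list 33 had a negative difference and the median was -0.25, and -0.15 on the 2 h arrays. For all 10 of the lower respiratory genes and for 6 of the 9 lower TCA cycle genes the 90 min array was the lowest of the *cdc14-3 snf1* arrays, and its part in the result was not tested. *NDE2*, an external NADH dehydrogenase, differed by -1.06. The 31 mitochondrial carriers, the list of *DIC1*, had 8 below (25.8%) and 1 above. *PIC2*, a copper and phosphate carrier, had -0.26, -0.33 and -0.06 in *cdc14-3 snf1* and 0.68 and 0.77 in *cdc14-3*. The 19 genes named *FMP*, which share only their detection in mitochondria, had 7 below (36.8%) and 1 above. Of these, *FMP45* differed by -1.97 and *FMP40* by -1.29.

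Fatty acid oxidation and peroxisome genes had 10 of 28 members below (35.7%) and 0 above, with a small median difference of -0.10. *TES1*, a peroxisomal thioesterase, had ratios of 0.89, 1.30 and 0.99 in *cdc14-3 snf1* and 1.96 and 1.58 in *cdc14-3*. *PEX21*, a cofactor of peroxisomal import, had -0.71, -1.56 and -1.12 in *cdc14-3 snf1* and -0.18 and -0.22 in *cdc14-3*. Amino acid and nitrogen breakdown, the list of *CHA1*, had 14 of 37 below (37.8%) and 1 above. *ARO10*, a decarboxylase of the aromatic and branched-chain amino acid route, had 2.00, 2.89 and 1.89 in *cdc14-3 snf1* and 3.56 and 3.63 in *cdc14-3*, and *PUT4*, the proline permease, had 2.28, 2.12 and 1.04 in *cdc14-3 snf1* and 3.01 and 3.49 in *cdc14-3*. The autophagy genes had 14 of 34 below (41.2%) and 6 above (17.6%). *ATG8*, the ubiquitin-like protein of the autophagosome membrane, had 0.42, 0.57 and -0.16 in *cdc14-3 snf1* and 1.22 and 1.53 in *cdc14-3* (adjusted p in limma 0.157).

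Catalases, dismutases, peroxidases and thiol systems had 14 of 31 members below (45.2%) and 1 above, with a median difference of -0.30. *GPX1*, a glutathione peroxidase, had 0.67, 1.29 and 0.55 in *cdc14-3 snf1* and 2.46 and 2.06 in *cdc14-3* (adjusted p in limma 0.0977). *SOD1*, the cytosolic superoxide dismutase, differed by -0.50 and *SOD2*, the mitochondrial one, by -0.33. *CTT1*, *TSA2*, *GPX1* and *GRX2* had the 4 largest differences of the list, all lower. *YAP1*, the oxidative stress transcription factor gene, differed by -0.08. Cell wall integrity genes had 12 of 32 below (37.5%) and 0 above, with a median difference of -0.21, and -0.12 on the 2 h arrays. For 10 of the 12 the 90 min array was the lowest of the *cdc14-3 snf1* arrays, and its part was not tested. Apart from *GSC2*, the protein kinase gene *KDX1* had -0.62, 0.29 and -0.10 in *cdc14-3 snf1* and 0.58 and 0.67 in *cdc14-3*, and *YPS1*, a wall protease, had 0.53, 1.57 and 1.22 in *cdc14-3 snf1* and 1.77 and 1.79 in *cdc14-3*.

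Heat shock proteins and chaperones ran mostly the other way, with 19 of 37 members above (51.4%) and 5 below (13.5%) and a median difference of 0.54. For 18 of the 19 members above, the 90 min array was the highest of the *cdc14-3 snf1* arrays, and its part in the result was not tested. The list median was 0.19 on the 90 min array and -0.22 and -0.36 on the 2 h arrays of *cdc14-3 snf1*, against -0.37 and -0.60 in *cdc14-3*, and on the 2 h arrays alone the median difference was 0.37. *BTN2*, a protein that sorts misfolded proteins into aggregates, had 3.38, 0.82 and 0.83 in *cdc14-3 snf1* and -0.37 and -0.60 in *cdc14-3*. Its 2 h difference was 1.31 (adjusted p in limma 0.0617), and in *snf1* its ratios were 4.85, 5.18 and 4.59. *HSC82*, a constitutive Hsp90, had -0.25, -0.88 and -1.0 in *cdc14-3 snf1* and -1.50 and -1.57 in *cdc14-3*. *YDJ1*, a cytosolic Hsp40, had -0.32, -1.11 and -1.24 in *cdc14-3 snf1* and -1.67 and -1.76 in *cdc14-3*. The 5 members below were *HSP26*, *HSP32*, *HSP31*, *SSE2* and *ECM10*. *HSP104*, the disaggregase, had 1.75, 0.93 and 0.55 in *cdc14-3 snf1* and 0.77 and 0.80 in *cdc14-3*, and *HSF1*, the heat shock factor gene, differed by 0.01.

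**Figure D4:**
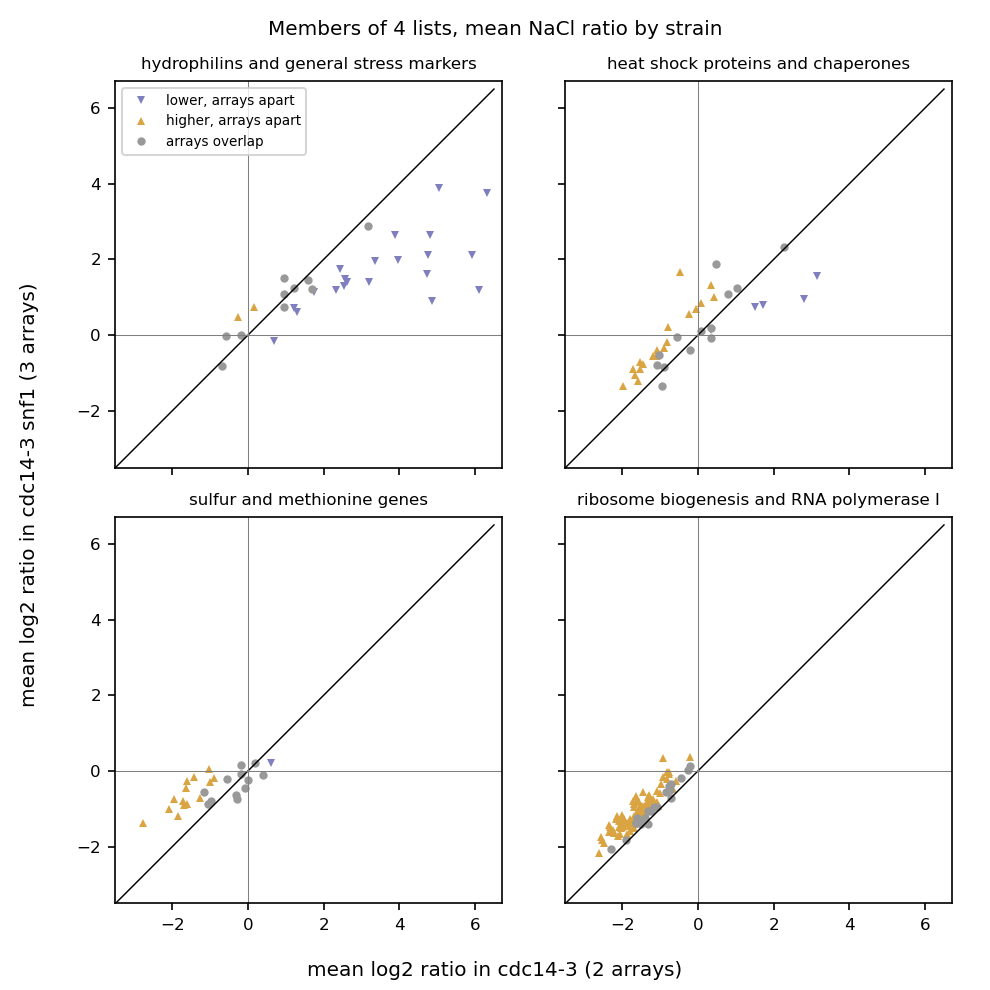
Mean log2 ratio of each member of 4 lists in *cdc14-3* (x axis, 2 arrays) and *cdc14-3 snf1* (y axis, 3 arrays). Triangles mark members whose arrays did not overlap, grey points those that did, and the line marks equal ratios. Stress markers on the right fall below the line, while 112 of 113 ribosome biogenesis genes lie above it.

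Sulfur and methionine genes lay above in 14 of 27 cases (51.9%) and below in 1, with a median difference of 0.62, and 0.60 on the 2 h arrays. The pathway reduces sulfate and builds methionine and S-adenosylmethionine, and 21 of its members had mean ratios below 0 in both strains. *MET6*, methionine synthase, had -0.88, -0.53 and -0.81 in *cdc14-3 snf1* and -1.53 and -2.37 in *cdc14-3*. *MET14*, the adenylylsulfate kinase, had -0.55, 0.64 and -0.56 in *cdc14-3 snf1* and -1.33 and -1.51 in *cdc14-3*. *MMP1*, the S-methylmethionine permease, had -0.41, 0.19 and -0.60 in *cdc14-3 snf1* and -1.27 and -1.97 in *cdc14-3*. All 3 lay above in every *cdc14-3 snf1* array without a call (adjusted p in limma of 0.178 to 0.491). The gene for the pathway's activator, *MET4*, differed by 0.11 and overlapped. Of 63 genes of other amino acid synthesis, 11 lay below and 4 above. *ARG3*, ornithine carbamoyltransferase, had -1.62, -2.27 and -0.64 in *cdc14-3 snf1* and -0.27 and -0.16 in *cdc14-3*, and *LEU2* had -2.16, -1.55 and -1.01 in *cdc14-3 snf1* and -0.33 and -0.58 in *cdc14-3*.

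Ribosome biogenesis and RNA polymerase I genes lay almost uniformly on one side. Of 113 members, 92 lay above (81.4%) and 0 below, and 112 had a positive difference. The median difference was 0.43, and 0.41 on the 2 h arrays, where all 113 were positive. Mean ratios were below 0 in both strains for 109 of the members. The list median was -1.02, -1.13 and -1.13 on its arrays and -1.58 and -1.44 on those of *cdc14-3*. No member was called by limma in either fit, and 25 had an unadjusted p under 0.05 with all arrays. *NUG1*, a GTPase of the large subunit pathway, had -0.66, -1.73 and -1.21 in *cdc14-3 snf1* and -2.28 and -2.02 in *cdc14-3* (adjusted p in limma 0.361). *FAF1*, needed for small subunit maturation, had -0.47, -0.82 and -0.67 in *cdc14-3 snf1* and -1.77 and -1.48 in *cdc14-3* (adjusted p in limma 0.441). With the arrays brought to one spread the list's median difference was 0.38. That setting scales each array as a whole. Slopes over all genes on the *cdc14-3* mean were 0.65, 0.79 and 0.64 for the *cdc14-3 snf1* arrays. The part of these lower slopes in the result was not tested.

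The ribosomal proteins themselves were under the shares over all features in both directions. All 137 cytosolic ribosomal protein genes were repressed in both strains, and 15 lay above (10.9%) and 3 below (2.19%), and the median difference was 0.02 and turned to -0.04 with the arrays brought to one spread. The list median was -1.27, -1.12 and -1.23 in *cdc14-3 snf1* and -1.02 and -1.40 in *cdc14-3*, so the strains overlapped. Many of these genes are near-identical pairs. Mitochondrial ribosomal protein genes lay above in 32 of 70 cases (45.7%) and below in 0, with a median difference of 0.30, and 0.23 on the 2 h arrays. *MRP10* had 0.64, 0.37 and 0.09 in *cdc14-3 snf1* and -0.31 and -0.57 in *cdc14-3*, and *RSM10* had 0.64, 0.40 and 0.38 in *cdc14-3 snf1* and -0.11 and -0.24 in *cdc14-3*. For 27 of the 32 the 90 min array was the highest of the *cdc14-3 snf1* arrays, and its part in the result was not tested.

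**Figure D5:**
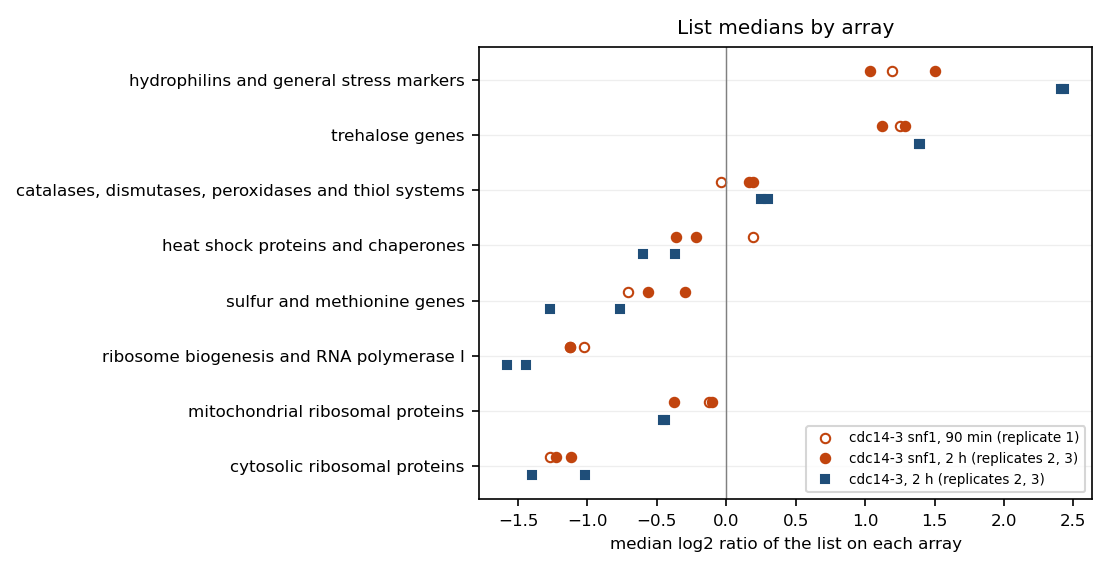
Median log2 ratio of 8 lists on each array (x axis). Red circles are *cdc14-3 snf1* (open for the 90 min array) and blue squares *cdc14-3*. The medians of stress markers (1.04 to 1.5 against 2.41 and 2.43) and of ribosome biogenesis genes (-1.13 to -1.02 against -1.58 and -1.44) are apart, and those of cytosolic ribosomal proteins overlap.

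Of the ergosterol synthesis genes, 11 of 29 lay above (37.9%) and 2 below, among them the sterol regulators *ECM22* (0.83) and *UPC2* (0.59) and the enzymes *ERG7* (0.65) and *ERG6* (0.60). In the phosphate regulon 6 of 28 lay above and 4 below. The repressible acid phosphatases *PHO5*, *PHO11* and *PHO12*, close copies of each other, differed by 0.90, 1.16 and 1.21, and *PHO12* had -1.28, -1.96 and -1.48 in *cdc14-3 snf1* and -2.73 and -2.84 in *cdc14-3*. Of 26 iron genes with values on all 5 arrays, 7 lay below (26.9%) and 1 above. *ISU1*, the scaffold for iron-sulfur clusters, had -0.61, -0.46 and -0.31 in *cdc14-3 snf1* and 0.71 and 0.49 in *cdc14-3* (adjusted p in limma 0.0977). In purine synthesis and salvage, 3 of 25 lay below and 4 above. The proteasome had 1 of 36 below and 6 above (16.7%), flocculins and adhesion genes 3 of 12 below and 1 above, and pheromone response genes 2 of 28 below and 7 above (25.0%).

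The 10 largest higher differences outside the cell cycle list, among genes whose arrays did not overlap, were those of *YBR190W*, *BTN2*, *DIA1*, *YML122C*, *LDS1*, *YOL046C*, *YDL241W*, *MTH1*, *ZPR1* and *YLR124W*, between 1.67 and 2.29. *LDS1* (YAL018C), a gene of the spore wall, had ratios of 1.19, 0.59 and 0.80 in *cdc14-3 snf1* and -1.64 and -0.56 in *cdc14-3* (adjusted p in limma 0.0786). *ZPR1* (YGR211W), a folding factor for the elongation factor eEF1A, had 1.18, -0.64 and -0.23 in *cdc14-3 snf1* and -1.59 and -1.59 in *cdc14-3*. As with *BTN2* and *MTH1*, the 90 min array stood above the 2 h arrays of its strain. Of the 10, only *DIA1* was called, on the 2 h arrays. Some of the 10 varied widely within a strain. *YML122C* had -0.91 and 0.90 in *cdc14-3*, and *YBR190W* had 3.27, 0.85 and 2.98 in *cdc14-3 snf1*. *YOL046C* was not tested on the 2 h arrays. YDL241W had -0.96, -1.78 and -1.30 in *cdc14-3 snf1* and -3.26 and -2.93 in *cdc14-3* (adjusted p in limma 0.0751), with all arrays below 0.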

How the data were processed

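For each array the authors deposited a log2 ratio per feature, of NaCl-treated over unstressed cells of the same strain, from 2-colour whole-genome tiled arrays with the same dye orientation throughout. The log base is that of the study's figure legends, which give its salt responses as log2 changes. The direction, stated in its methods as treated against unstressed cells, was also read from osmotic and ribosomal genes. The normalization steps, the combination of probes and the genome build are not given in the sources used here. Unstressed cells were taken just before NaCl, so treated cells were at 35 °C for 30 min longer. The few arrays limit the precision.

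Of 6868 features, 5984 could be given a symbol through the locus tags of RefSeq's gene table (assembly R64 of strain S288C). Values were used as deposited. A model with 1 mean per strain was fitted in limma 3.58.1 (R 4.3.3) with lmFit and eBayes, to all 8 arrays (features measured on 2 or more arrays in each strain) and to the 6 arrays at 2 h. The contrast was *cdc14-3 snf1* minus *cdc14-3*, with Benjamini-Hochberg adjustment over all features tested and a threshold of 0.05. The fit was tested on simulated data with independent noise, the same spread of a gene on every array and no effect of heating time. That test therefore does not cover the array slopes or heating times of these data. Members, gene lists and tests were chosen with earlier results of these data known. The 130 genes of the study's cell cycle list and 9 cyclin genes were set apart. Of the symbols in the lists, 2 matched no locus tag. Genes were named where called with all arrays, where called on the 2 h arrays (every higher gene and the 30 largest falls), for the 10 largest differences in each direction among genes with non-overlapping arrays, and for each list where called or among its 4 largest such differences. *SNF1* and list members that did not differ were also named. Promoter sequences were not used here.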

Additional observations from a re-analysis of the deposited data

How the results depend on the processing

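The number of called genes depended on the settings. Against 3 calls with all arrays, limma gave 52 at an adjusted p of 0.1, 25 with only the 2 strains fitted, 0 with no filter on missing values (692 genes at an unadjusted p under 0.05, against 676 with the filter), 272 with array weights (82 higher and 190 lower), 51 with the arrays brought to one spread (6 higher and 45 lower), 12 with a trended and robust spread and 13 with heat time as a covariate. Leaving out single arrays gave 0 to 75 calls. Dropping *snf1* replicate 1 gave 75 and dropping *cdc14-3 snf1* replicate 2 gave 24. Dropping any of the other 6 gave 0, with 283 to 657 genes at an unadjusted p under 0.05. Against 44 calls on the 2 h arrays, limma gave 127 at an adjusted p of 0.1, 7 with only the 2 strains fitted, 11 with no filter, 67 with array weights and 12 with a trended and robust spread, and leaving out single arrays gave 0 (415 genes at an unadjusted p under 0.05) to 53. The replicate numbers were not shown to pair the samples: no label ties them, and the differences between replicates 2 and 3 correlated across genes at 0.24 between *cdc14-3 snf1* and *cdc14-3*, 0.07 between *cdc14-3 snf1* and *snf1*, and -0.14 between *cdc14-3* and *snf1*. With the replicate number as a block, limma called 2 genes with all arrays (*CHA1* among them at an adjusted p of 0.0388, with *FMP16* and *DIC1* at 0.0774) and 36 on the 2 h arrays (28 of them among the 44).

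Of the 35 list medians, 10 changed sign under some setting, none of them above 0.12 in size in the main comparison. Among genes named as overlapping, *TAL1* and *FKS1* had differences of 0.01 and 0.14 on the 2 h arrays, against -0.08 and -0.05 with all arrays. Without single arrays, the median difference ran from -0.26 (without *cdc14-3* replicate 3) to -0.077 (without *cdc14-3 snf1* replicate 2) for amino acid breakdown, from -0.21 to -0.01 (without *cdc14-3 snf1* replicate 2) for gluconeogenic genes, from -0.54 to -0.37 for trehalose genes, from -0.38 to -0.13 (without *cdc14-3* replicate 2) for catalases and thiol systems, and from 0.40 to 0.53 for ribosome biogenesis genes. Requiring values on all arrays is the same as the main filter for the 2 h arrays and was not run apart. With 2 *cdc14-3* arrays, both at 2 h, and 1 *cdc14-3 snf1* array at 90 min, heating time and strain overlap in part. Without either *cdc14-3* array no gene was called with all arrays, and a missing call does not show that a gene did not differ.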
